A study of Mus musculus with 15 samples.

Results

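Macrophages of sympathetic ganglia were compared with microglia, the resident macrophages of the brain, across all genes. The comparison used 6 of the 15 libraries of the study, 3 labelled SAM ganglia and 3 labelled microglia, and 15289 of 24084 genes passed the filter on low counts. The cells, positive for both F4/80 and CD45, had been sorted ex vivo from C57BL/6J mice and their total RNA sequenced by a low-input protocol, with tissues taken from 10 mice. All 15 library titles carry the condition label ND, so it does not separate the groups. Ganglia had been digested with collagenase for 10 min and then trypsin for 30 min, and brain with collagenase for 30 min, both at 37 °C, so tissue and digestion cannot be told apart. Macrophages of subcutaneous fat (sATM, n = 2) and visceral fat (vATM, n = 2), digested like brain, were used to separate differences that fat macrophages also showed from those particular to ganglia. Fiber libraries (SAM fibers, n = 2, hyaluronidase for 30 min and collagenase for 15 min) and spleen libraries (SpM, n = 3, digested like brain) are given as further levels. Whether libraries within a group represent different animals is not stated in the labels, so each p-value measures library-to-library spread, which may be technical.

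Microglia colonise the brain early in development and depend on CSF1 receptor ligands and TGF-beta for their identity, which includes the ADP receptor P2ry12, the membrane protein Tmem119 and the transcription factor Sall1. Macrophages of the meninges, of the perivascular space and of many peripheral tissues carry scavenger and lectin receptors such as Cd163 and Mrc1 and present antigen on MHC class II. Sympathetic ganglia hold macrophages among neuron bodies, satellite glia, fibroblasts and vessels. Enzymatic dissociation is known to induce immediate-early and heat-shock genes in macrophages.

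Levels are given as CPM, the DNA-corrected counts of a gene relative to the TMM-scaled library total. A gene was called when its edgeR adjusted p was below 0.05 and its log2 difference at least 1 in size. Ganglion macrophages had 750 genes called higher than microglia (4.91% of those tested) and 310 called lower (2.03%), or 1060 in either direction (6.93%), and the median log2 difference over all tested genes was -0.13. Whether called or not, 1920 genes (12.6%) had every ganglion library above every microglia library, and 1935 (12.7%) had every one below. Absence of overlap is thus common here. Without SAM ganglia 3 and Microglia 2, the library of each group with the most DNA background, 530 genes were higher and 133 lower. The lower count was 178 without Microglia 1 and 192 without Microglia 3. On the raw gene-body counts, before the authors' removal of DNA reads, 58 genes were called higher and 4 lower. Totals in the 6 libraries ran from 2.55 to 11.6 M counts, 46.1% to 65.7% of them from Rn45s, Lars2 and Mir6236, and a floor of 3 counts corresponded to 0.260 to 0.842 CPM. Raw counts on olfactory receptor genes, a measure of DNA background, were 49.8, 145 and 857 per M in ganglia and 33.1, 1085 and 549 in microglia.

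Both cell groups carried the gate. Adgre1, which encodes F4/80, was at 305, 456 and 336 CPM in ganglia and at 202, 176 and 184 CPM in microglia. Every ganglion library was above every microglia library, with a log2 difference of 0.97 ± 0.25 (SE; edgeR adjusted p = 0.0235), just under the size required for a call. Ptprc, which encodes CD45, was not called (0.66 ± 0.32, edgeR adjusted p = 0.318). Of 15 core macrophage genes, 1 was higher (Lyz2, lysozyme) and 5 were lower (Ctsd, Mertk, Sirpa, Itgam and Lgmn), with a median log2 difference of -0.40. The DAP12 adaptor Tyrobp, at mean levels of 612 and 806 CPM, and Fcer1g, at 683 and 642 CPM, were not called.

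The 4 marker genes divided both groups without overlap, beside 12.6% of all tested genes with ganglia higher and 12.7% with ganglia lower. Cd163, the scavenger receptor for haptoglobin-hemoglobin complexes (mm10 chromosome 6, 124304651 to 124330527), was at 121, 94.4 and 69.6 CPM in ganglia and at 1.64, 0 and 1.52 CPM in microglia. Fat libraries reached similar levels, 51.4 and 40.2 CPM in sATM and 162 and 126 CPM in vATM, and the ganglion-to-fat difference was not called (0.23 ± 0.39). The log2 difference from microglia was 6.26 ± 0.56 (edgeR adjusted p = 2.99e-06), and that of the raw gene-body counts 3.72. The raw count was 155 in Microglia 2, where the corrected value is 0. Cbr2, a carbonyl reductase of tissue macrophages (chromosome 11, 120729485 to 120732021), was at 239, 323 and 251 CPM in ganglia and at 4.41, 0.281 and 0.608 CPM in microglia. Its difference was 7.01 ± 0.63 (edgeR adjusted p = 3.10e-06), and its fat libraries ran from 73.8 to 327 CPM.

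P2ry12, the microglial ADP receptor (chromosome 3, 59216271 to 59262831), was at 4730, 3623 and 3445 CPM in microglia and at 219, 196 and 202 CPM in ganglia. Ganglion macrophages thus had 5.23% of the microglial mean, a log2 difference of -4.26 ± 0.32 (edgeR adjusted p = 4.74e-07). Fat macrophages were lower still, at 7.13 and 11.5 CPM in sATM and 30.3 and 30.4 CPM in vATM, and ganglia exceeded them (edgeR adjusted p = 2.65e-06). Sparc, a secreted matrix glycoprotein (chromosome 11, 55394159 to 55420080), showed the same order. It was at 1921, 2413 and 2057 CPM in microglia, at 97.7, 92.6 and 85.5 CPM in ganglia and at 15.8 to 27.9 CPM in fat, with ganglia minus microglia at -4.53 ± 0.31 (edgeR adjusted p = 2.49e-07).

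**Figure D1:**
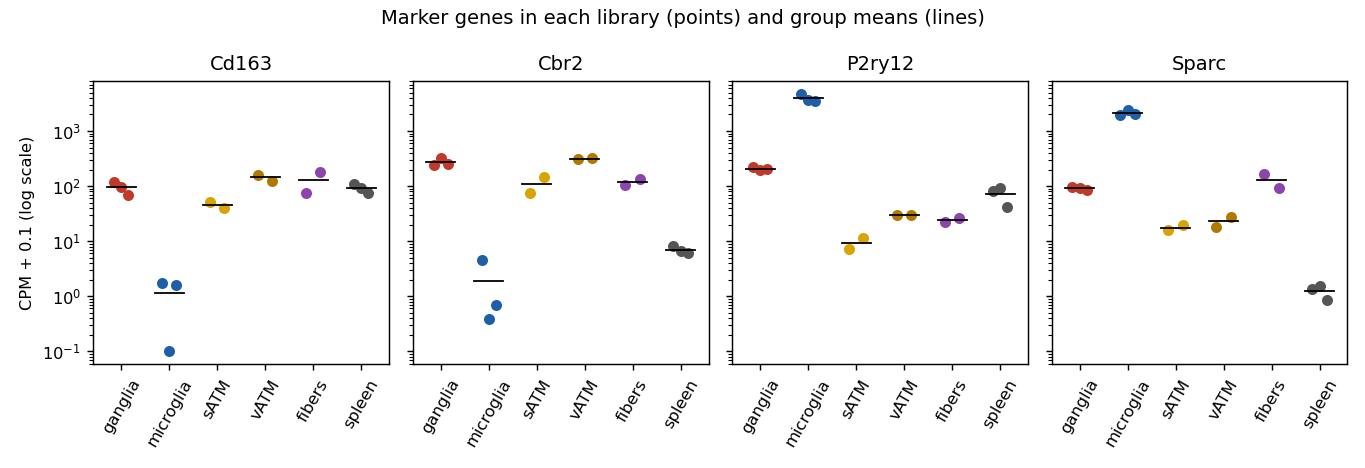
CPM + 0.1 on a log scale for the 4 marker genes in all 15 libraries; points are libraries, coloured by group, and lines are group means. Cd163 and Cbr2 are high in ganglia and fat and near 0 in microglia, while P2ry12 and Sparc are highest in microglia, lower in ganglia and, in fat, lower again.

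Differences from microglia were divided by the fat macrophages. A gene was shared with fat when fat macrophages were called in the same direction against microglia, where 1225 genes were higher (8.01% of those tested) and 974 lower (6.37%). It was particular to ganglia when fat was not so called and ganglia were themselves called in that direction against fat, where 369 genes were higher (2.41%) and 178 lower (1.16%). All 3 comparisons share libraries, so the division is a description. Of the 750 higher genes, 639 (85.2%) were shared with fat, 50 (6.67%) were particular to ganglia and 61 (8.13%) met neither definition. Of the 310 lower genes, 269 (86.8%) were shared, 4 (1.29%) were particular and 37 (11.9%) met neither. The particular higher genes numbered 35 without SAM ganglia 3 and Microglia 2, 30 without SAM ganglia 2, 24 without vATM 1 and 24 without vATM 2. Against sATM alone 22 higher genes were particular to ganglia, and against vATM alone 31.

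**Figure D2:**
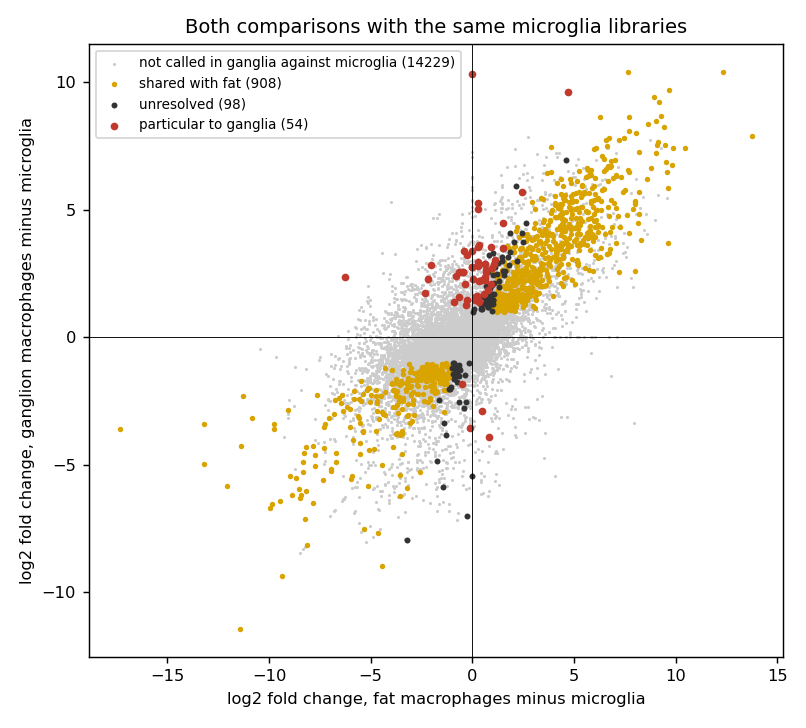
Log2 fold change of fat macrophages minus microglia (x axis) and of ganglion macrophages minus microglia (y axis) for the 15289 tested genes, each point a gene, coloured by its class. The 639 shared higher genes lie in the upper right and the 269 shared lower genes in the lower left; because both axes use the same microglia libraries, points are drawn towards the diagonal.

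Genes that define microglia were lower in ganglia. Of 25 microglia signature genes, all tested, 23 were lower in ganglia and none higher, with a median log2 difference of -2.88, and all 23 were shared with fat. Sall1, a zinc-finger factor needed for microglial identity, was at 384, 428 and 398 CPM in microglia and 10.4, 14.7 and 13.2 CPM in ganglia (-4.97 ± 0.63, edgeR adjusted p = 0.000157). Tmem119 was at 1056, 1419 and 1579 CPM in microglia and 118, 153 and 181 CPM in ganglia (-3.17 ± 0.42, edgeR adjusted p = 0.000128). The fructose transporter Slc2a5 was at 371 to 516 CPM in microglia and 5.71 to 10.6 CPM in ganglia (-5.84 ± 0.35, edgeR adjusted p = 4.74e-07). No ganglion library overlapped a microglia library for these 3 genes.

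Lower did not mean as low as in fat. For 20 of the 25 signature genes, ganglion macrophages were called higher than fat macrophages, beside 2.41% of all tested genes. Tmem119 did not pass 1.03 CPM in any fat library, which left ganglia 7.67 ± 0.49 higher on the log2 scale (edgeR adjusted p = 7.32e-07). Olfml3, a secreted olfactomedin, was at 285, 410 and 484 CPM in ganglia, 1489, 2319 and 1960 CPM in microglia and at most 1.97 CPM in fat. As shares of the microglial mean, ganglia ran from 1.28% for Sall3 to 48.7% for Fcrls over the 25 genes, with a median of 13.5%. The medians were 3.89% in fibers, 1.22% in sATM, 1.81% in vATM and 0.273% in spleen. For P2ry12 the 3 ganglion libraries were at 5.57%, 4.98% and 5.13%, for Tmem119 at 8.71%, 11.3% and 13.4%, and for the fractalkine receptor Cx3cr1 at 46.0%, 31.7% and 39.1%. The share therefore differed between genes by more than between libraries. In such bulk samples, fewer cells of a type and less RNA per cell cannot be told apart.

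Cx3cr1 and Fcrls were the signature genes not called. Cx3cr1 averaged 1800 CPM in ganglia and 4630 CPM in microglia (-1.36, edgeR adjusted p = 0.0892), and its ganglion level was called above fat, at 190 CPM in sATM and 85.3 CPM in vATM. Over all lists and classes, 154 of the 1060 called genes had a corrected value of 0 in a ganglion, microglia or fat library where the raw gene-body count was at least 100. Without all such genes, an alternative chosen after seeing the data, 628 genes were higher and 278 lower in ganglia.

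Over all genes, 79 of the 269 shared lower genes were called higher in ganglia than in fat, an order of microglia above ganglia above fat. Ganglion levels in these genes were 1.35% to 48.9% of the microglial mean, with a median of 22.7%. The count was 40 without SAM ganglia 3 and Microglia 2, 43 without vATM 1 and 49 without vATM 2. Beyond the signature list they included the adhesion receptor Adgrg1 (15.2, 14.2 and 17.7 CPM in ganglia, 387, 588 and 438 CPM in microglia, at most 2.18 CPM in fat). Others were the lysophospholipid acyltransferase Lpcat2, at 30.4% of the microglial level, and the organic anion transporter Slco2b1, at 48.9%. Fibers had a mean above both fat means for 49 of the 79 genes.

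**Figure D3:**
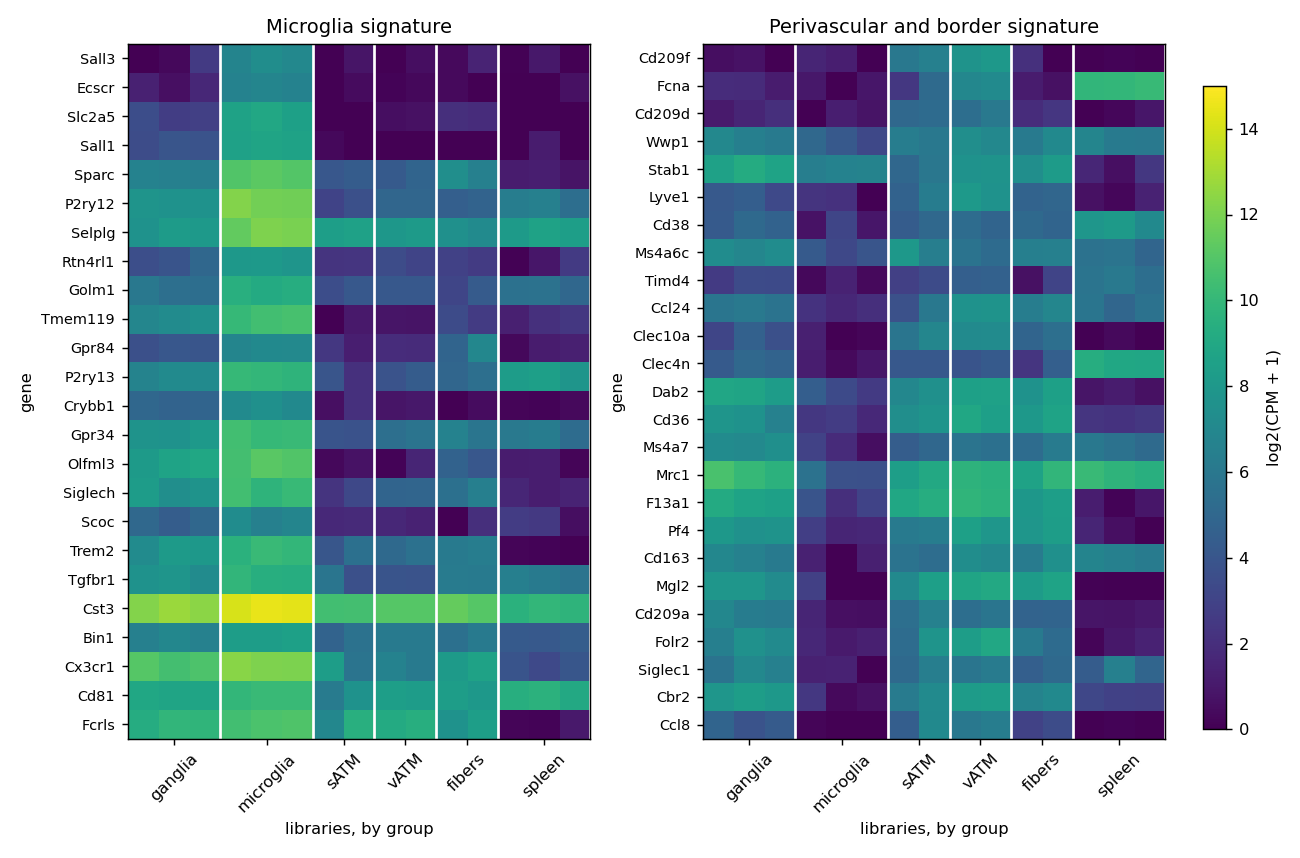
Log2(CPM + 1) of 24 of the 25 microglia signature genes and the 25 perivascular and border macrophage genes in all 15 libraries, ordered by the log2 difference of ganglia minus microglia; columns are libraries, divided by group. Ganglia show intermediate levels of most microglia genes, with a median of 13.5% of the microglial mean, and high levels of most border genes.

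Purine signalling genes were lower or not called. Of 15 genes tested from the list of purine receptors and ectonucleotidases, 5 were lower, beside 2.03% of all tested genes, and none higher. Among the lower genes were the ADP receptors P2ry12 and P2ry13, the ectonucleotidase Entpd1 (CD39) and the adenosine receptor Adora3. The remaining lower member, Gpr34, is a lysophosphatidylserine receptor and not a purine receptor. P2ry12, P2ry13 and Gpr34 are also members of the microglia signature, so the 2 lists are not separate results. Adora3 was at 104, 77.5 and 98.2 CPM in microglia and 2.08, 2.66 and 0 CPM in ganglia (-5.82 ± 0.82, edgeR adjusted p = 0.000404), and it was as low in fat. P2ry6, the UDP receptor, was level with microglia at 230 and 232 CPM, a log2 difference of -0.01, and was called higher in ganglia than in fat, at 73.1 and 115 CPM.

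TGF-beta signalling genes did not follow one direction. Of 19 tested, 3 were lower (the type I receptor Tgfbr1, Smad3 and the integrin Itgb5) and 3 higher (Acvrl1, Tgfbi and Tgif1), and 6 were called higher in ganglia than in fat. Without SAM ganglia 3 and Microglia 2 none of the 3 lower calls held. Smad3 was also lost without any 1 ganglion library, Microglia 1 or 2, or either vATM library, and Itgb5 without Microglia 3, SAM ganglia 1 or 3, or either vATM library. Pmepa1, a TGF-beta target and feedback inhibitor, was at 558, 500 and 563 CPM in ganglia and 446, 598 and 457 CPM in microglia, with overlapping libraries. In fat it did not exceed 18.8 CPM. The type II receptor Tgfbr2 averaged 406 CPM in ganglia and 360 CPM in microglia, against 117 and 168 CPM in sATM and vATM.

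Among macrophage transcription factors, 7 of 24 tested were higher and none lower. Runx3 was at 56.6, 35.6 and 56.2 CPM in ganglia and 0.519, 3.09 and 0.608 CPM in microglia (5.39 ± 0.68, edgeR adjusted p = 8.48e-05), with a raw log2 difference of 1.46. Irf4, Id2, Cebpb, Spic, Bhlhe40 and Nr1h3 were the others, all shared with fat. Spi1, which encodes PU.1, averaged 252 CPM in ganglia and 235 CPM in microglia and was not called.

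Genes of perivascular and border macrophages were the counterpart of the microglia signature. Of 25 tested, 22 were higher in ganglia and none lower, with a median log2 difference of 5.08, 21 of them shared with fat. Mrc1, the mannose receptor, was at 1667, 1071 and 783 CPM in ganglia and 49.2, 12.1 and 11.7 CPM in microglia. The chemokine Pf4 was at 251, 194 and 212 CPM against 5.97, 1.96 and 2.13 CPM, and the folate receptor Folr2 averaged 140 CPM against 1.60 CPM. For Mrc1 and Pf4 every ganglion library exceeded every microglia library.

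Not all of these genes reached fat levels. Ganglia were called lower than fat for 5 of the 25 genes, among them Lyve1, the hyaluronan receptor, at 17.1, 21.5 and 9.03 CPM against means of 51.7 CPM in sATM and 241 CPM in vATM. The lectins Cd209f, Cd209d and Fcna were not called against microglia, and in ganglia their means were 0.375, 2.05 and 2.17 CPM. Ms4a7 and Stab1 were called higher in ganglia than in fat. Stab1, a scavenger receptor, was the border gene classed as particular to ganglia (2.30 ± 0.45 against microglia, edgeR adjusted p = 0.0034). It was at 382, 600 and 421 CPM in ganglia and 83.7, 100 and 102 CPM in microglia. The class rests on a fat mean whose depots lay on opposite sides of microglia, sATM at 31.1 and 60.4 CPM and vATM at 197 and 208 CPM. Stab1 averaged 238 CPM in fibers, so a level above microglia was not limited to ganglia.

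Genes of antigen presentation were higher. Of 10 MHC class II genes tested, 7 were higher, all shared with fat, with a median log2 difference of 4.01. The invariant chain Cd74 was at 6120, 5657 and 8026 CPM in ganglia and 119, 31.2 and 36.8 CPM in microglia (6.72 ± 0.63, edgeR adjusted p = 4.14e-06), and the transactivator Ciita at 111, 85.4 and 105 CPM against 2.51, 1.96 and 2.43 CPM. H2-Aa, H2-Ab1 and H2-Eb1 lay 6.53 to 6.72 higher, and none of these was called against fat. H2-Oa, H2-Ob and H2-DMb2 were not called.

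Monocyte genes were higher than in microglia but often below fat. Of 12 tested, 8 were higher, and 5 of the 12 were called lower in ganglia than in fat. Ccr2, the receptor for monocyte chemoattractants, was at 818, 509 and 476 CPM in ganglia, 40.9, 3.93 and 10.9 CPM in microglia and 688 to 1031 CPM in fat. S100a4 was at 40.2, 42.2 and 25.9 CPM in ganglia, 2.81 to 5.02 CPM in microglia and 262 to 336 CPM in fat, so its 3 groups did not overlap.

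Lipid, iron and phagocytic genes gave mixed groups. Apoe, the apolipoprotein that carries cholesterol (chromosome 7, 19696244 to 19699188), was at 16928, 32570 and 31536 CPM in ganglia, 899, 465 and 705 CPM in microglia and 3245 to 7623 CPM in fat. It was higher in ganglia than in microglia (5.29 ± 0.38, edgeR adjusted p = 3.6e-07) and than in fat (2.35 ± 0.30, edgeR adjusted p = 0.000211). Of 17 lipid-handling genes tested, 7 were higher than in microglia and 2 lower (the tetraspanin Cd9 and the exporter Abcg1). Lpl, Plin2, Pltp, Lgals3 and Fabp5 were called lower in ganglia than in fat. Of 10 iron and heme genes, Fth1, Ftl1, Hmox1 and Blvrb were higher and the iron exporter Slc40a1 was lower, which it was not without SAM ganglia 3 and Microglia 2.

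Among 17 Fc, scavenger and TAM receptors and ligands tested, 8 were higher and 2 lower. The TAM receptors went opposite ways. Axl was at 390, 411 and 388 CPM in ganglia and 18.3, 0 and 17.0 CPM in microglia (5.02 ± 0.74, edgeR adjusted p = 0.000319), whereas Mertk averaged 50.7 CPM against 216 CPM. Of 16 complement genes tested, 6 were higher, C3 and properdin (Cfp) among them, and 1 was lower, Itgam. The calls of C3 and Itgam were lost without SAM ganglia 3 and Microglia 2, and that of Itgam also without Microglia 1, SAM ganglia 2 or SAM ganglia 3. The C1q chains C1qa, C1qb and C1qc were not called against microglia, at means of 2420, 3480 and 2290 CPM in ganglia. Of 13 Toll-like receptor genes, Tlr8 and Tlr2 were higher and Tlr3 was lower, the last not without Microglia 1.

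Immediate-early genes, which cells transcribe within minutes of a stimulus, were nearly all higher. Of 23 tested, 22 were higher in ganglia, beside 4.91% of all tested genes, with a median log2 difference of 4.41, and only Maff was not called. Fosb, an AP-1 subunit (chromosome 7, 19302696 to 19310045), was at 196, 158 and 158 CPM in ganglia and 0.173, 0 and 0.456 CPM in microglia (9.42 ± 0.57, edgeR adjusted p = 1.48e-07). Fos was at 3881, 3071 and 2842 CPM against 14.4, 15.7 and 13.2 CPM, and the phosphatase Dusp1 at 682, 746 and 835 CPM against 5.28, 0.561 and 3.95 CPM. The groups did not overlap for these genes.

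Of the 22, 20 were shared with fat. Fosb was at 109 to 130 CPM in the fat libraries, and all 23 genes had a higher mean in fibers than in ganglia. Spleen, with the same enzyme and time as brain and fat, had means below ganglia for 22 of the 23 genes, such as 0.330 CPM for Fosb and 3.39 CPM for Fos. Fat and brain therefore differed in these genes under one stated digestion, and what the ganglion digestion added was not tested. Ier5 was particular to ganglia only by the size required for a call: it was at 385, 344 and 430 CPM in ganglia, 84.2 to 102 CPM in microglia and 113 to 259 CPM in fat, with fat minus microglia at 0.94 ± 0.26 (edgeR adjusted p = 0.0185). Its fiber mean was 641 CPM. Egr3 met neither definition.

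The CArG box, the binding sequence of serum response factor, known for immediate-early gene promoters, was looked for in the 250 bases before the start site. RefSeq promoters (GRCm38.p6) matched 11419 of the tested genes, and 8 motifs were searched on both strands. A CArG box was found for 2 of 20 immediate-early genes with a matched promoter, for 10 of 461 shared higher genes (2.17%) and for 130 of all 11419 (1.14%). The box of Egr2, one of the 20, and that of Cbr2, which belongs to the border genes, are printed with 10 bases on either side, 5′ to 3′ on the gene's strand, with the box in capitals.
Egr2 (chr10:67537787-67537816, plus strand): gttcctcagtCCATATATGGgcagcgacgt
Cbr2 (chr11:120732110-120732139, minus strand): cagttggatgCCATATTTGGggagtgagag
Egr2 averaged 49.4 CPM in ganglia and 2.96 CPM in microglia, and Cbr2 271 and 1.77 CPM. A match describes these letters and no binding.

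Heat-shock genes were higher for 8 of 11 tested, 5 of them shared with fat. Hspa1a, an inducible chaperone, was at 2854, 2860 and 2780 CPM in ganglia and 18.9, 14.3 and 27.5 CPM in microglia (7.12 ± 0.40, edgeR adjusted p = 7.36e-08), with 1637 to 1799 CPM in fat. Dnajb1, its cochaperone (chromosome 8, 83608175 to 83612653), was at 468, 591 and 367 CPM against 33.2, 43.5 and 45.8 CPM in microglia and 68.8 to 102 CPM in fat. Like Ier5, Dnajb1 was particular to ganglia only by the size required for a call. Its fat minus microglia difference was 0.93 ± 0.29 (edgeR adjusted p = 0.0376), and its fiber mean was 383 CPM. Hsp90aa1 is the exception and its call is not read here. The deposited table lists it at 0 in all ganglion and fat libraries, which makes it lower, while its raw gene-body counts were 6033, 9307 and 3407 in ganglia and 590, 188 and 373 in microglia. Of the 1060 called genes, 42 had raw gene-body levels on the other side, 4 of them by at least 2-fold (Hsp90aa1, Mxd1, Slc5a3 and Cask).

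Cytokine and chemokine genes were largely higher. Of 16 cytokine and NF-kB feedback genes, 9 were higher and none lower, all shared with fat. Il1b was at 589, 369 and 503 CPM in ganglia, 3.63, 1.68 and 3.04 CPM in microglia and 153 to 245 CPM in fat (7.37 ± 0.56 against microglia, edgeR adjusted p = 5.06e-07). Of 21 chemokines, 13 were higher and none lower, with a median log2 difference of 4.24, and 6 were called higher in ganglia than in fat. Ccl4 was at 464, 270 and 399 CPM in ganglia, 17.7 to 20.9 CPM in microglia and 73.1 to 119 CPM in fat. Among 9 chemokine receptors, 4 were higher (Ccr1, Ccr2, Ccrl2 and Cxcr4).

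**Figure D4:**
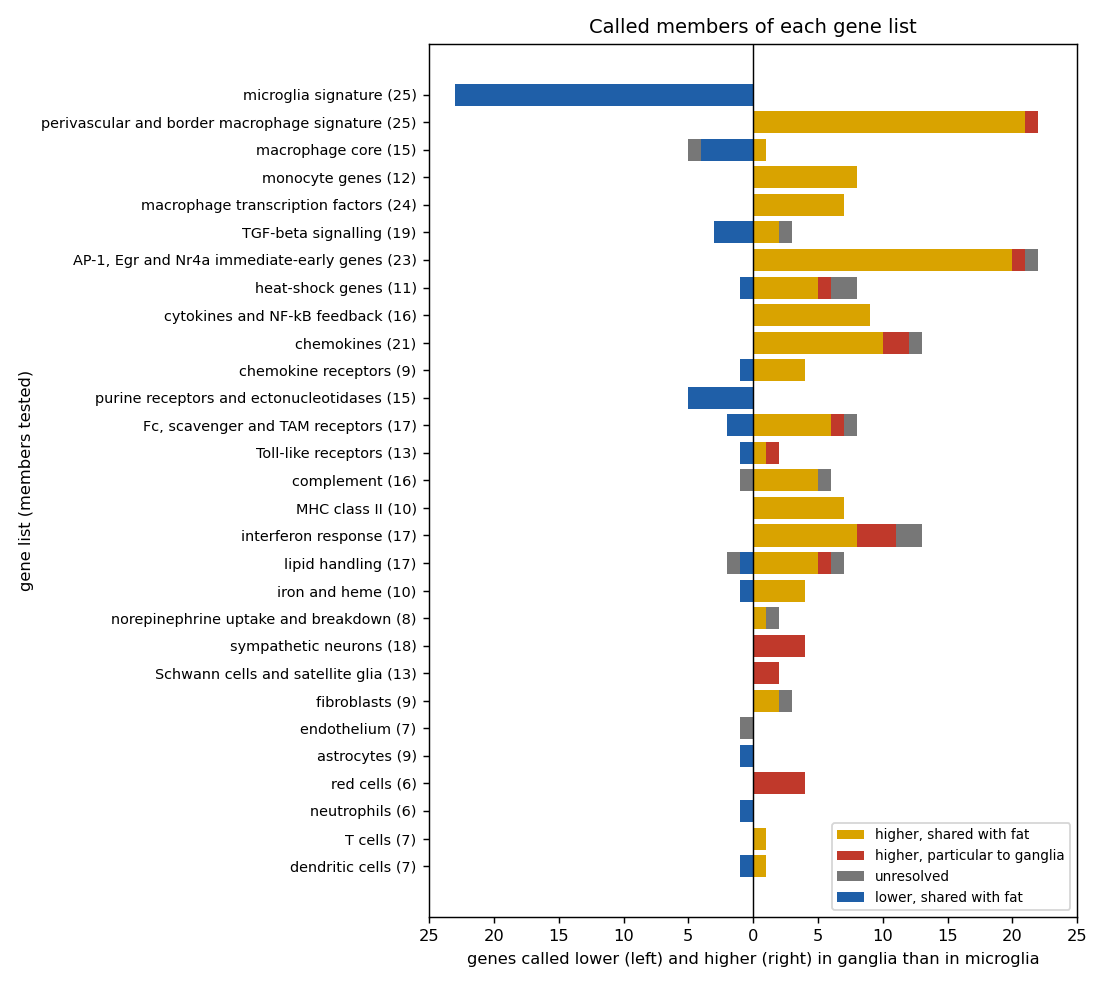
Number of members of each gene list called lower (left) and higher (right) in ganglia than in microglia, with the number of members tested in brackets; colours give the class. The longest bars are the 23 lower microglia genes and, on the right, 22 border genes and 22 immediate-early genes.

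By fold change among well-expressed genes without overlap, the leading shared higher genes were Fosb, Retnla, Fos, Ifi27l2a, Dusp1, Ccl7, Cmah and Il1b. Retnla, a secreted resistin-like protein, was at 150, 12.9 and 76.8 CPM in ganglia, at most 0.561 CPM in microglia and 837 to 9629 CPM in fat. Cmah, which makes N-glycolylneuraminic acid, was at 48.5, 40.0 and 29.5 CPM in ganglia and at most 0.433 CPM in microglia. Some of these folds rest on corrected values near 0 beside many raw counts. Cmah had raw gene-body counts of 105, 1120 and 719 in microglia and a raw log2 difference of 0.62, and Ifi27l2a had raw counts of 1407, 336 and 791 in microglia. Neither was called on raw counts. The leading shared lower genes were Upk1b, Slco4a1, Csmd3, Sall3, Ecscr, Serpine2, Slc2a5 and Adora3. Upk1b, a uroplakin, was at 55.8, 51.1 and 43.3 CPM in microglia and listed at 0 in every ganglion and fat library. Raw counts of Upk1b were 1301, 477 and 685 in microglia, and the raw log2 difference was -3.14. DESeq2 did not call Upk1b or Csmd3. Serpine2, a protease inhibitor, was at 279, 310 and 287 CPM in microglia and 2.31, 4.91 and 4.61 CPM in ganglia.

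The 50 higher genes particular to ganglia had a median log2 difference of 2.56 from microglia, beside 3.17 for the shared higher genes. Fibers had a mean above microglia and both fat means for 43 of the 50, and spleen for 17. Among 17 interferon response genes tested, 13 were higher, and Ifit1, Ifit3 and Usp18 were particular to ganglia. Ifit3, an interferon-induced antiviral protein (chromosome 19, 34583529 to 34588982), was at 41.8, 41.4 and 35.7 CPM in ganglia, 5.19, 1.12 and 8.66 CPM in microglia and 3.56 to 9.66 CPM in fat (2.94 ± 0.52 against microglia, edgeR adjusted p = 0.00158). Ifit1 was at 36.0, 45.7 and 31.7 CPM in ganglia and 5.80, 7.30 and 5.17 CPM in microglia, and Usp18, a negative regulator of the interferon receptor, at 31.4, 37.6 and 34.5 CPM and 4.76, 2.25 and 6.69 CPM. Ganglia were above every microglia and fat library for each of the 3 genes. The raw log2 difference from microglia was 1.96 for Ifit3 and 0.66 for Usp18. Rsad2 was also higher in ganglia than in fat but was shared, and Ifitm3 was lower in ganglia than in fat.

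The promoters of Ifit1, Ifit3 and Rsad2, all higher in ganglia than in microglia and fat, are shown. The interferon-stimulated response element was searched on both strands as a pair of GAAA half-sites 2 bases apart. It was in 7 of 13 interferon genes with a matched promoter (53.8%), in 36 of 461 shared higher genes (7.81%), in 2 of 36 particular higher genes (5.56%) and in 352 of all 11419 (3.08%). The 250 bases before the start sites of Ifit1 and Ifit3 run 5′ to 3′. Capitals mark the element, 2 copies in each, and in Ifit3 also an AP-1 match (TGANTCA) nearest the start. For Rsad2 the element has 10 bases on either side.
Ifit1 (chr19:34640639-34640888, plus strand): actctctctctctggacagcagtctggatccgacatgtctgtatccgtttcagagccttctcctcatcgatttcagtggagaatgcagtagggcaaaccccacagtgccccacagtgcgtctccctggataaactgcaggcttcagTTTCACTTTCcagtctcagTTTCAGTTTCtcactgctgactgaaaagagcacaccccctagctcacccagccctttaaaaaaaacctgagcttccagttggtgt
Ifit3 (chr19:34583279-34583528, plus strand): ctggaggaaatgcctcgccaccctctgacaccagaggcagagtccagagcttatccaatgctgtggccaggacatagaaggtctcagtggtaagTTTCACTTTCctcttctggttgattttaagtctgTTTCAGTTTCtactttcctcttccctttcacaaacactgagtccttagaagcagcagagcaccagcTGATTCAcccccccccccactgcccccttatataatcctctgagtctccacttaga
Rsad2 (chr12:26456553-26456582, minus strand): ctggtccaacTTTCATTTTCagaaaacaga
AP-1 matches were in 41 of 461 shared higher promoters (8.89%), 6 of 187 shared lower promoters (3.21%) and 602 of all 11419 (5.27%).

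Other immune genes particular to ganglia were chemokines, receptors and stress genes. Ccl12, a monocyte chemoattractant, was at 195, 156 and 195 CPM in ganglia, 22.2, 13.8 and 16.4 CPM in microglia and 2.80 to 25.3 CPM in fat (3.37 ± 0.50 against microglia, edgeR adjusted p = 0.000375). Cxcl16, a scavenger receptor and chemokine, was at 255, 257 and 340 CPM in ganglia, 33.7 to 49.9 CPM in microglia and 23.2 to 72.3 CPM in fat. Ganglia lay above every microglia and fat library for both genes, while microglia and fat overlapped. Tlr2 was at 323, 294 and 273 CPM against 101, 109 and 88.0 CPM in microglia and 53.9 to 76.4 CPM in fat, a call lost on RPKM values with either pseudocount. The stress gene Gadd45g, the receptor Lilra5 and the cholesterol hydroxylase Ch25h had means of 69.8, 42.6 and 23.2 CPM in ganglia and 6.08, 5.96 and 0.995 CPM in microglia. The class sets ganglia against microglia and fat only, and fibers were also high in these genes. Fiber means exceeded ganglion means for Ccl12 (271 CPM), Tlr2 (533 CPM) and Ch25h (45.8 CPM). They were somewhat below them for Cxcl16 (273 CPM), Gadd45g (57.6 CPM) and Lilra5 (36.9 CPM).

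A further 12 of the 50 belong to other cell types by list or by name. They were 4 sympathetic neuron genes (Stmn2, Npy, Uchl1 and Nefl) and 2 genes of Schwann cells and satellite glia (Apod and Kcnj10). The other 6 were globin entries in pairs at the same or nearly the same position. Hba-a1 pairs with Hba-a2, Hbb-b1 with Hbb-bs, and Hbb-b2 with Hbb-bt. Each pair counts largely the same reads, so the 12 and the 50 include both names of each locus. Stmn2, a neuronal microtubule regulator, was at 50.1, 26.4 and 29.7 CPM in ganglia and 7.87, 7.02 and 5.32 CPM in microglia. Hba-a1 was at 229, 199 and 239 CPM in ganglia and 29.2 to 44.8 CPM in microglia. For 11 of these 12 genes the fiber mean exceeded the ganglion mean, as it did for 14 of the other 38. Without SAM ganglia 3 and Microglia 2, Stmn2, Nefl, Hba-a1 and Hba-a2 were no longer called. The call of Stmn2 was also lost without Microglia 3 or SAM ganglia 1. That of Nefl was lost in 11 of 22 alternatives, including without any 1 ganglion, sATM or vATM library, and that of Apod in 7 of 21, including without Microglia 1 or 3, SAM ganglia 2, or either vATM library.

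Sums were taken over the members of each list that passed the filter on low counts. The 18 tested of 22 neuron genes reached 147 to 196 CPM in ganglia, 25.3 to 37.4 in microglia, 29.0 to 77.4 in sATM, 7.25 to 14.2 in vATM and 396 to 912 in fibers. None of all 22 neuron genes was at 0 in all ganglion libraries, and Gal was at 0 in all microglia libraries. The 6 tested of 8 red cell genes reached 640 to 896 CPM in ganglia and 94.6 to 142 in microglia, sums that include both Hba-a1 and Hba-a2. The 13 tested of 16 Schwann and satellite glia genes were at 224 to 381 CPM in ganglia and 349 to 403 in microglia. The 9 fibroblast genes tested were at 97.0 to 147 CPM in ganglia and 11.9 to 15.8 CPM in microglia. Dcn, a fibroblast proteoglycan, was called higher and was shared with fat, with a raw log2 difference of 0.58. The part of these cells in the other results was not tested. Central neurons, oligodendrocytes, mural cells, B cells and NK cells had no called member, while 1 astrocyte gene (Slc1a3), 1 endothelial gene (Pecam1) and 1 neutrophil gene (Csf3r) were lower. The calls of Pecam1 and Csf3r were each lost in 7 of 22 alternatives, that of Pecam1 without Microglia 1 or 3 or SAM ganglia 1 or 3, and that of Csf3r without any 1 microglia library or SAM ganglia 1 or 2. Of the T cell genes Cd4 was higher, and of the dendritic cell genes Cd209a was higher and Siglech lower.

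**Figure D5:**
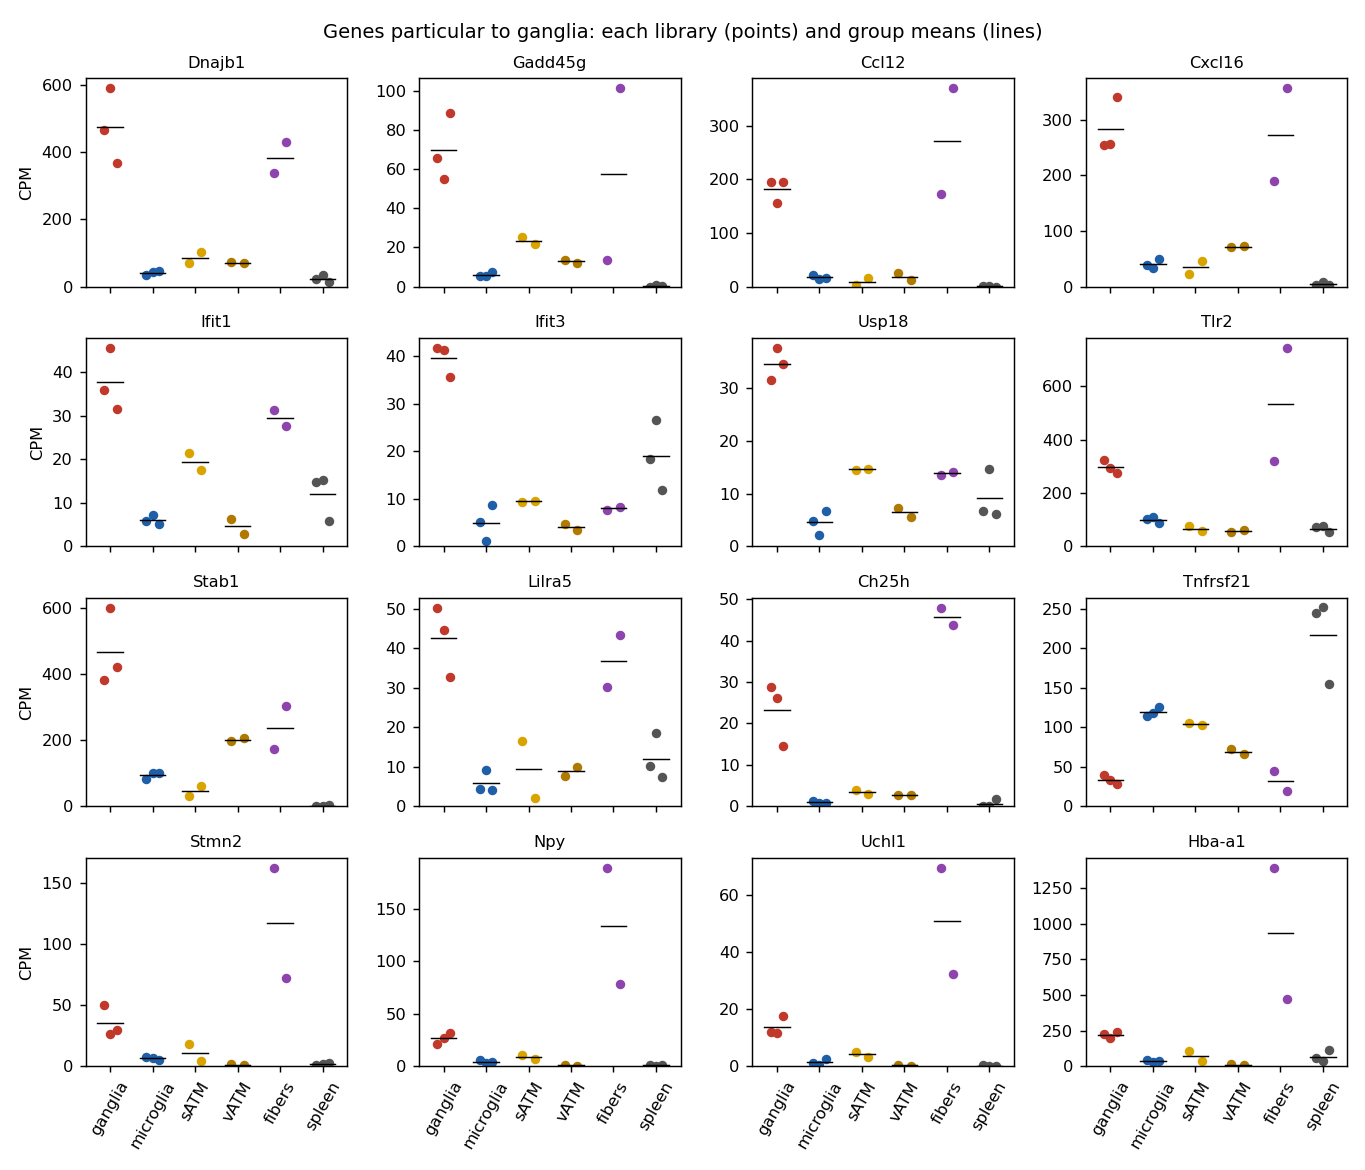
CPM of 16 genes particular to ganglia in all 15 libraries, each axis starting at 0; points are libraries and lines group means. In the 15 higher genes every ganglion library lies above every microglia and fat library, Tnfrsf21 is lower, and the neuron and globin genes (bottom row) reach their highest values in fibers. Ccl12, Tlr2 and Ch25h also have their highest group mean in fibers.

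The 4 lower genes particular to ganglia were Tnfrsf21, Psat1, A630033H20Rik and Galnt6. Tnfrsf21, the death receptor DR6 (chromosome 17, 43016555 to 43089188), was at 39.2, 33.6 and 27.7 CPM in ganglia, 114, 118 and 125 CPM in microglia and 65.7 to 105 CPM in fat. Ganglia lay below every microglia and fat library (-1.83 ± 0.30 against microglia, edgeR adjusted p = 0.000971). Psat1, an enzyme of serine synthesis, averaged 1.13 CPM in ganglia, 8.57 CPM in microglia, 10.9 CPM in sATM and 12.7 CPM in vATM.

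By its title, the study asked about norepinephrine uptake and breakdown in macrophages of sympathetic neurons. Of 8 genes of norepinephrine uptake and breakdown tested, 2 were higher in ganglia than in microglia. Aldh2, an aldehyde dehydrogenase, was shared with fat, at 10.4, 38.7 and 25.9 CPM in ganglia and 2.28 to 5.45 CPM in microglia. Maoa, monoamine oxidase A, was at 14.5, 20.3 and 8.43 CPM in ganglia and 1.30 to 1.96 CPM in microglia (3.15 ± 0.89, edgeR adjusted p = 0.0411), without overlap, and met neither definition, with fat at 0 to 8.48 CPM. Its call was lost in 11 of 22 alternatives, among them the replicate block (adjusted p = 0.0629 in edgeR), raw counts and leaving out any 1 microglia library, SAM ganglia 1 or 2, or vATM 1 or 2. The transporter Slc6a2 was at 11.3, 3.32 and 2.01 CPM in ganglia and at most 1.30 CPM in microglia and was not called (2.69 ± 1.38, edgeR adjusted p = 0.353). None of 6 adrenergic receptors tested was called against microglia. Adrb1 was called higher in ganglia than in fat.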

How the data were processed

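Macrophage RNA of 6 tissue sources was sequenced in 15 libraries, which were grouped by the tissue in their labels. Per the submitters' processing notes, STAR and HOMER were used with the mm10 build, with versions and settings not given in the sources used here. The tests used the authors' estimated counts, deposited after removal of DNA contamination by a method not given in the sources used here, and 45.3% of its values were whole. These were rounded. Raw gene-body counts and RPKM values, also deposited by the authors, served as alternatives.

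Genes were filtered with filterByExpr (minimum count 10), scaled by TMM and compared by the quasi-likelihood F-test of edgeR 4.0.16 (R 4.3.3), with 1 mean per group over all 15 libraries and Benjamini-Hochberg adjustment over 15289 genes. Fat was the mean of sATM and vATM. SE is the log2 difference divided by the square root of F. The common biological coefficient of variation was 0.68. Library totals ran from 2.55 to 12.5 M counts, and a floor of 3 counts lay at 0.249 to 0.897 CPM, which covers counting error only. Alternatives used DESeq2 1.42.0 and limma 3.58.1, the latter also on log2(RPKM + 0.1) and log2(RPKM + 1) for genes with a mean RPKM of at least 0.5 in a group.

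Named genes were, among called genes whose higher group averaged 30 CPM or more and whose ganglion and microglia libraries did not overlap, the 8 with the largest fold in each direction and class, leaving out predicted, clone-named, small RNA and mitochondrial genes. To these were added the markers, up to 5 members of each list by p, and up to 4 genes that went opposite ways in ganglia and fat. Members of lists outside this rule, and other genes such as Lyve1, Mertk and Tmem119, were named after their values were seen. The members and lists were chosen with earlier results of these data known. A few members of the lists are not reported here by name.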

Additional observations from a re-analysis of the deposited data

Results flagged for a closer look

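For 3 genes the difference from microglia had opposite signs in ganglion and fat macrophages, both called, and the difference between the 2 was the ganglion-to-fat contrast of the edgeR fit. Kif1a, a neuronal kinesin motor, was at 13.2, 12.8 and 14.8 CPM in ganglia, 3.72, 3.09 and 1.37 CPM in microglia and 0 to 3.31 CPM in fat. The ganglion-to-fat difference was 4.48 ± 0.59 (edgeR adjusted p = 0.000312). Of the fat groups only vATM, at a mean of 0.120 CPM, was clearly below the microglial mean of 2.73 CPM, while sATM averaged 2.69 CPM.

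Kcnj10, an inward-rectifier potassium channel of glia, was at 15.7, 15.5 and 13.2 CPM in ganglia, 3.72, 0 and 4.10 CPM in microglia and at most 0.120 CPM in fat, a difference of 8.62 ± 0.89 (edgeR adjusted p = 8.79e-05). Spleen averaged 311 CPM. The call of Kcnj10 against microglia was lost without Microglia 1 and without SAM ganglia 2. Its corrected value was 0 in Microglia 2 and vATM 2 beside raw gene-body counts of 216 and 104. In sATM 2 the corrected count was 0.488 beside a raw count of 107. The raw log2 difference of ganglia from microglia was 0.40. Pxdc1 was at 46.4, 36.7 and 31.9 CPM in ganglia, 10.6, 13.2 and 10.9 CPM in microglia and 0.575 to 10.1 CPM in fat, a difference of 4.07 ± 0.38. No group had enough libraries for a test of single outlying libraries.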

How the results depend on the processing

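Counts of lower and of particular genes moved most with the processing, and the cause was not tested. DESeq2 called 535 genes lower, 413 of them shared, 90 higher and 22 lower genes particular to ganglia, 128 with the order of microglia above ganglia above fat, and 1026 between ganglia and fat. limma voom with quality weights gave 707, 582, 126, 19, 141 and 960 for the same counts, and 3559 genes between fat and microglia. Raw gene-body counts gave 58 higher genes (53 shared), 4 lower (3 shared), 0 particular in either direction, 0 in the graded order, 497 between fat and microglia and 4 between ganglia and fat. log2(RPKM + 0.1) gave 495 higher genes (397 shared), 33 higher and 10 lower particular genes and 356 between ganglia and fat. log2(RPKM + 1) gave 379 shared higher, 740 lower and 657 shared lower genes. Of the called genes, 70.8% were higher as reported, 60.9% with voom, 52.1% and 40.9% on RPKM and 93.5% on raw counts. Without SAM ganglia 3 and Microglia 2, 133 genes were lower, 117 shared lower and 40 graded. With ganglia, microglia and fat alone in the fit, 11 lower genes were particular and 122 graded, and with no filter 12 lower genes were particular. Against sATM alone 22 higher and 7 lower genes were particular, and against vATM alone 31 higher genes, with 52 graded.

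Leaving out each ganglion, microglia and fat library in turn gave 559 to 709 higher, 178 to 267 lower, 482 to 586 shared higher, 162 to 235 shared lower, 24 to 49 particular higher, 2 to 9 particular lower and 43 to 70 graded genes, with 1532 to 2194 between fat and microglia and 257 to 548 between ganglia and fat. The last count was 363 without SAM ganglia 2, 265 without vATM 1 and 257 without vATM 2. Particular lower genes numbered 9 without SAM ganglia 2 and 2 without vATM 2. Replicate numbers did not pair the libraries (correlations of deviations 0.484, -0.177 and 0.125). With the replicate block 735 genes were higher and 312 lower, 597 and 275 of them shared, 47 and 5 particular and 86 graded. An alternative chosen after seeing the data left out genes listed at 0 despite at least 100 raw counts and gave 628 higher and 278 lower genes. Of 187 named genes, none reversed, and 99 of the 125 called lost their call on raw counts.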
